A study of Mus musculus with 4 samples.

Results

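The insulin-like growth factor (IGF) system was followed through the cells of the mouse epididymis and vas deferens by 8 genes: the ligand gene *Igf1*, the receptor gene *Igf1r* and 6 genes of the binding protein family, *Igfbp2*, *Igfbp3*, *Igfbp4*, *Igfbp5*, *Igfbp6* and *Igfbp7*. They were listed by name, with no threshold on their values but with earlier results of these data known, and are 8 of the 16892 genes in the count table. The tissue came from adult male FVB/NJ mice aged 10 to 12 weeks, with no treatment and no altered gene in any group. The caput, corpus and cauda are the successive segments of the epididymis, the coiled duct in which sperm mature, and the vas deferens is the muscular duct that carries sperm onward. For each of these 4 regions, the segments of 8 epididymides from the same 4 mice were pooled and dissociated, and the single cells were made into 1 library by the 10x method, which sequences the 3′ end of each transcript. Each region is therefore 1 sample. No value has a replicate, no test between regions was possible, and a difference between libraries cannot be told apart from a difference between 2 dissections or dissociations.

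IGF1 is a secreted growth factor that promotes growth, survival and differentiation by activating a receptor tyrosine kinase, the product of *Igf1r*. Most IGF outside cells is held by binding proteins, which can store the ligand in the matrix, carry it, keep it from the receptor or release it when proteases cut them. In reproductive tract tissues *Igf1* is known mainly as a product of the stroma, the connective tissue under the epithelium, while the receptor is found widely. IGFBP7 is the distant member of the family: it binds IGFs only weakly and is known as a protein of blood vessel walls and basement membranes.

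The sequences that mark the family are shown first, as background to the members whose levels are compared below. The genes lie at chr10:87858265-87937042 (*Igf1*), chr7:67952827-68233668 (*Igf1r*), chr1:72824503-72852474 (*Igfbp2*), chr11:7206086-7213923 (*Igfbp3*), chr11:99041244-99054392 (*Igfbp4*), chr1:72857932-72874884 (*Igfbp5*), chr15:102144362-102149511 (*Igfbp6*) and chr5:77349240-77408041 (*Igfbp7*) of GRCm38, the assembly also called mm10, by the GENCODE annotation. The reading frames of the 6 binding protein genes were searched for the codons of the cysteine-rich signature of the amino-terminal, IGF-binding domain (cysteine, glycine, cysteine, cysteine, any pair of residues, cysteine). In the search each cysteine codon was TG and any base and the glycine codon GG and any base, in frame and on the coding strand only. Of the 6 frames 5 held it, and in each it lay in exon 1. The 45 coding bases around it follow, with the match in capitals.
*Igfbp2*, chr1:72824769-72824813 (+ strand), exon 1, from codon 68 of 305: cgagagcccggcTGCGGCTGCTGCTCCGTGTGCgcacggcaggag
*Igfbp3*, chr11:7213554-7213598 (− strand), exon 1, from codon 69 of 292: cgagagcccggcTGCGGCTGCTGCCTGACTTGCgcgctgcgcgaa
*Igfbp4*, chr11:99041641-99041685 (+ strand), exon 1, from codon 53 of 254: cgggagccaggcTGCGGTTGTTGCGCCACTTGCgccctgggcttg
*Igfbp5*, chr1:72873954-72873998 (− strand), exon 1, from codon 52 of 271: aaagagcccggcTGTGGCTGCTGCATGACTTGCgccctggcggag
*Igfbp7*, chr5:77407814-77407858 (− strand), exon 1, from codon 57 of 282: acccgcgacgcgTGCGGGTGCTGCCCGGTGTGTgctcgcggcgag
*Igfbp6* was the member without these letters. The second search was for the codons of cysteine, tryptophan, cysteine and valine of the carboxy-terminal, thyroglobulin-type domain, with the third base of the cysteine and valine codons free. Again 5 of the 6 frames held the motif, all in exon 4, but here *Igfbp7* was the member without it. The 42 coding bases around each match follow, with the match in capitals.
*Igfbp2*, chr1:72852016-72852057 (+ strand), exon 4, from codon 263 of 305: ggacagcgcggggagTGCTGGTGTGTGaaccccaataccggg
*Igfbp3*, chr11:7208449-7208490 (− strand), exon 4, from codon 263 of 292: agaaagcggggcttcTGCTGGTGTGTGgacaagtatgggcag
*Igfbp4*, chr11:99051463-99051504 (+ strand), exon 4, from codon 222 of 254: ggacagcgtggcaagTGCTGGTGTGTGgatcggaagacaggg
*Igfbp5*, chr1:72862449-72862490 (− strand), exon 4, from codon 240 of 271: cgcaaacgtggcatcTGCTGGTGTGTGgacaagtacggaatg
*Igfbp6*, chr15:102149198-102149239 (+ strand), exon 4, from codon 210 of 238: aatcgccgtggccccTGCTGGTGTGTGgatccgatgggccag
In these windows the matched letters of all 5 genes were the same 12 bases, while the flanking codons differed from gene to gene. The protein sequences themselves were not used here.

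The level of a gene in a group of cells is its unique molecular identifiers (UMIs, 1 per captured transcript molecule) per 1000000 UMIs of all genes in the group (UPM). The libraries use 3′ tags, so UPM counts molecules and is not scaled by gene length. The whole set held 8880 cells and 26639701 UMIs, with 1433 to 3506 cells and 4408989 to 10744928 UMIs per library and library medians of 1433 to 2207 UMIs per cell. The cell types are those of the authors' annotation: 3956 principal, 348 clear, 1412 basal, 2222 stromal, 502 muscle and 245 endothelial cells, with the rest immune. Every defining marker gene checked had its highest level in the type it defines, except *Itga6* for basal and *Cd52* for immune cells. The counts already had the authors' estimate of ambient RNA taken out. Intervals in brackets are exact 95% limits for counting error only, and 43 barcodes occurred in more than 1 library.

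The members differed in the cell type with their highest level. *Igf1*, *Igfbp2* and *Igfbp6* had their highest level in stromal cells, *Igfbp3*, *Igfbp4* and *Igfbp7* in endothelial cells, *Igfbp5* was at like levels in these types, and *Igf1r* was spread over all types. For 3 of the 8 members (*Igfbp2*, *Igfbp3* and *Igfbp6*) the highest type was at least 4 times the next, against 10.4% of the 12868 genes that reached 20 UMIs in some type. The median ratio of the highest to the next type was 3.16 for the members and 1.36 for those genes. Types were defined on these same counts, so this is a description and not a test.

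**Figure D1:**
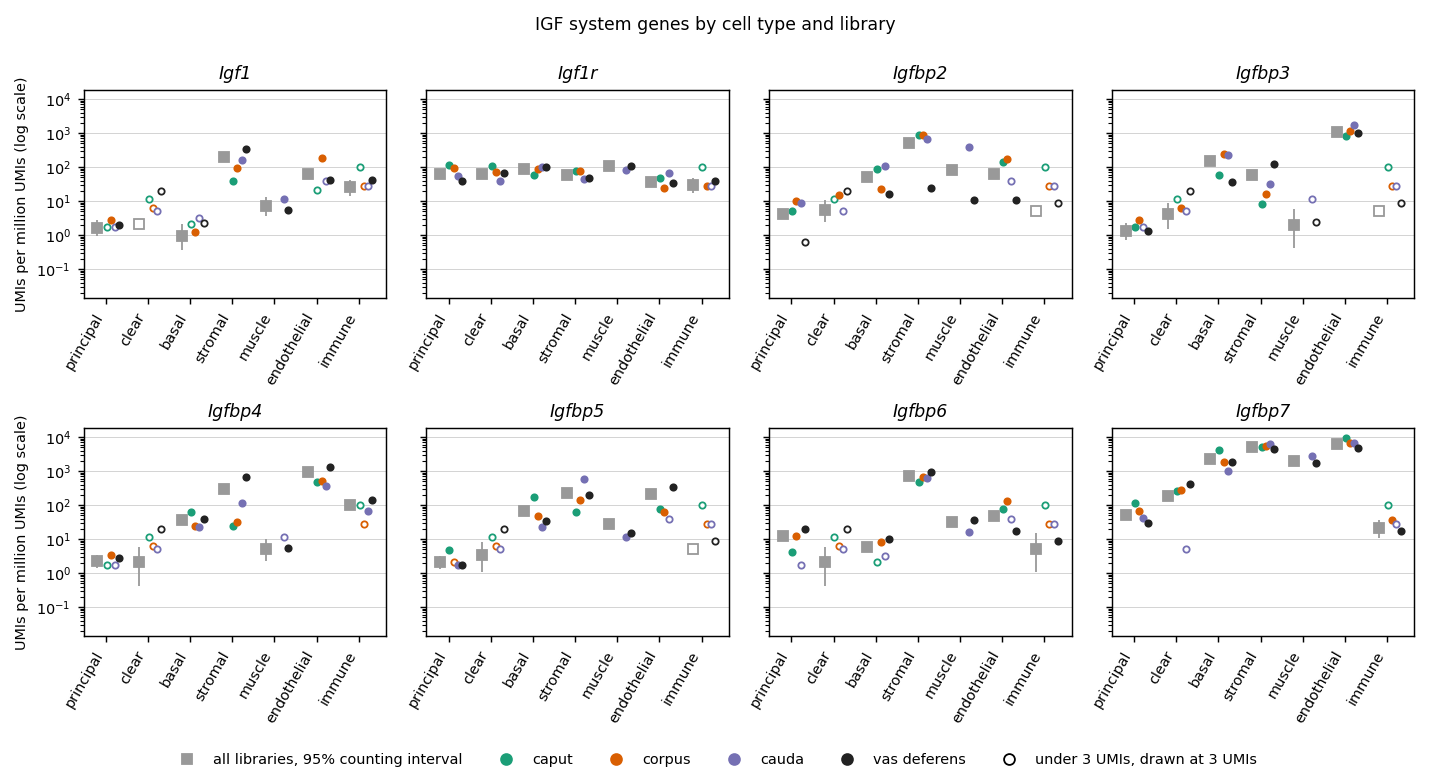
Level of each of the 8 genes in the 7 cell types, in UMIs per 1000000 UMIs on a log axis. Gray squares are all libraries together with their 95% counting interval, colored points are single libraries with at least 10 cells of the type, and open symbols stand for fewer than 3 UMIs, drawn at the level of 3 UMIs. *Igf1* and *Igfbp6* peak in stromal cells at 199 and 740, *Igfbp3* peaks in endothelial cells at 1080, and *Igf1r* stays between 29.2 and 106 in every type.

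*Igf1*, the ligand, was almost a stromal transcript, with 92.7% (91.3 to 94.1) of its 1392 UMIs in stromal cells. Its level there was 199 (188 to 210), followed by 63.4 in endothelial and 25.8 in immune cells. In the other types it was 7.21 in muscle, 1.67 in principal and 0.97 in basal cells, and 0 UMIs in clear cells, where 3 UMIs would have been 2.05. The principal and basal values had overlapping counting limits, and with the clear cells they form the low end, while stromal, endothelial, immune and muscle cells stood in that order with ratio limits above 1. Stromal cells led in 3 of the 4 libraries. In the corpus, endothelial cells were at 189 and stromal cells at 94.5, but 21 of the 31 *Igf1* UMIs of those endothelial cells were in 1 cell of 39. Without the corpus library the log2 ratio of stromal to endothelial cells was 2.90 in place of 1.65, and without the vas deferens library it was 0.22.

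*Igf1r* behaved in the opposite way. No type held more than 33.5% of its 1837 UMIs. The order ran from muscle at 106 (89.9 to 123) through basal at 85.7, clear and principal both at 64.3, stromal at 59.96 and endothelial at 37.1 to immune cells at 29.2. Clear, principal and stromal cells did not differ beyond counting error (ratio of clear to principal 0.80 to 1.24, of principal to stromal 0.94 to 1.22), nor did endothelial and immune cells (1.27, 0.68 to 2.45). The receptor was thus read in epithelium, stroma and muscle at 59.96 to 106, and the library ranges of each neighboring pair overlapped. Muscle cells led in 1 of the 2 libraries with at least 10 of them. The muscle populations differed, as given under other observations, and the deeper of them was below basal cells.

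Among the binding proteins, *Igfbp6*, whose product prefers IGF2 over IGF1, was the most restricted. It was at 740 (719 to 761) in stromal cells and 49.1 in endothelial cells, a ratio of 15.1 (11.1 to 21.0), with 95.03% of its UMIs in stromal cells. By library the stromal level ran from 470 to 955 and the endothelial level from 13.4 to 128, so the libraries of these types did not overlap. After drawing 1000 UMIs from each cell, 43.5% (41.2 to 45.9) of stromal cells had an *Igfbp6* UMI, and 59.5% did before thinning. The share in basal cells was 0.779% after thinning and 1.35% before. Median depths were 2716.5 UMIs in stromal and 4333 in basal cells, so the type with the lower depth had the higher share.

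*Igfbp2*, a binding protein that can also attach to cell surface integrins, was at 525 (507 to 543) in stromal cells and 80.7 in muscle cells, a ratio of 6.51 (5.43 to 7.85). Muscle, endothelial (64.6) and basal cells (50.0) followed with neighbors that did not differ beyond counting error, and clear, principal and immune cells were at or below 5.47. The muscle value rested on few cells: 82.1% of its 123 UMIs were in 5 of 502 cells. Without the vas deferens library, muscle was represented mostly by those cauda cells and the log2 ratio was 1.02 in place of 2.70, so *Igfbp2* no longer reached 4 times the next type. *Igfbp4* then did, with a log2 ratio of 3.10.

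*Igfbp3* encodes the main IGF carrier of serum. It was at 1080 (1010 to 1153) in endothelial cells and 152 in basal cells, a ratio of 7.13 (6.50 to 7.82), then 59.96 in stromal cells. In libraries the endothelial level ran from 833 to 1700 and the basal level from 36.3 to 241, again without overlap. Of the 902 endothelial UMIs, 39.0% were in 5 of 245 cells. The 1700 came from 5 of the 12 cauda cells, and without the richest of these it was 1097. Endothelial cells are few, however, and by number of UMIs basal cells held as much of this transcript: 41.6% of the 2250 *Igfbp3* UMIs were in basal cells and 40.1% in endothelial cells. After thinning, 25.0% of endothelial cells (50 of 200) and 10.5% of basal cells had the gene, while in principal cells 0.0528% did. Before thinning these shares were 29.0%, 20.5% and 0.329%, at median depths of 2590, 4333 and 934.5 UMIs.

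*Igfbp4*, a member that is cut by pregnancy-associated plasma protein A, was also highest in endothelial cells, at 943 (879 to 1012) against 296 in stromal and 97.9 in immune cells. After thinning, 49.5% of endothelial cells carried it, and 57.1% did before. Muscle cells, the comparison here, had it in 0 of 363 thinned cells, where 3 cells would be 0.826%, and in 0.996% before thinning. The median depths were 2590 UMIs in endothelial and 1803 in muscle cells. *Igfbp5*, a matrix-bound binding protein, was at 231 in stromal and 206 in endothelial cells. These levels did not differ beyond counting error (limits of the ratio 0.96 to 1.32). Stromal cells led all types in the corpus and cauda, endothelial cells in the vas deferens, and basal cells, at 172, in the caput. Leaving out the cauda library put endothelial cells ahead, at a log2 ratio of -0.53.

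*Igfbp7* was of another order of abundance than the rest. It had 56421 UMIs in all, and its level was 6147 in endothelial and 5200 in stromal cells, 2230 in basal and 1954 in muscle cells. Clear cells were at 180, principal cells at 52.9 and immune cells at 20.6. Every neighboring pair in this order differed beyond counting error, but only the steps from stromal to basal and from muscle to clear cells had library ranges without overlap. After thinning, 94.7% of stromal, 88.5% of endothelial, 75.5% of muscle and 73.4% of basal cells had the transcript, against 0.633% of immune cells. Before thinning the stromal and immune shares were 90.7% and 3.59%, and the immune cells had a median depth of 2887 UMIs. *Igfbp7* made up 73.7% of all binding protein UMIs in stromal cells, 72.4% in endothelial cells and 87.7% in basal cells.

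The stromal compartment was divided by the authors into 5 populations: myofibroblasts (975 cells), fibroblast C2 (153), fibroblast C4 (319), a stem-like population (549) and a secretory population (226). The stem-like and secretory cells came almost wholly from the vas deferens, with 517 and 213 cells there. Their markers were where the names place them: *Lgr5* was at 367 in stem-like cells and 9.05 to 35.6 elsewhere, and *Ptx3* at 2414 in secretory cells and 7.82 to 101 elsewhere. Fibroblast C4 is labelled StromalIL6 in the table of cells. It had *Il6* at 5291 but also the smooth muscle actin gene *Acta2* at 7742, close to the 7212 of myofibroblasts, and a median of only 670 UMIs per cell. The number of cells, together with the label, was what tied it to the C4 of the study.

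Members of the family were unevenly spread over these populations. For 5 of the 8 members the highest stromal population was at least 2 times the next, against 6.40% of the 9601 genes that reached 20 UMIs in some population. The median ratio was 2.98 for the members and 1.25 for those genes. The populations were defined on these same counts, and the study named *Igf1* among the genes that set its secretory cluster apart. These numbers are therefore a description and not a test. The 5 members were not led by 1 population: *Igf1* and *Igfbp3* were highest in secretory cells, *Igfbp2* in fibroblast C4, *Igfbp4* in stem-like cells and *Igfbp5* in fibroblast C2. No member was highest in myofibroblasts. Fibroblast C4, which led *Igf1r*, *Igfbp2* and *Igfbp7*, had a median of 670 UMIs per cell against 3821 in myofibroblasts. The part of depth in its lead was not tested.

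**Figure D2:**
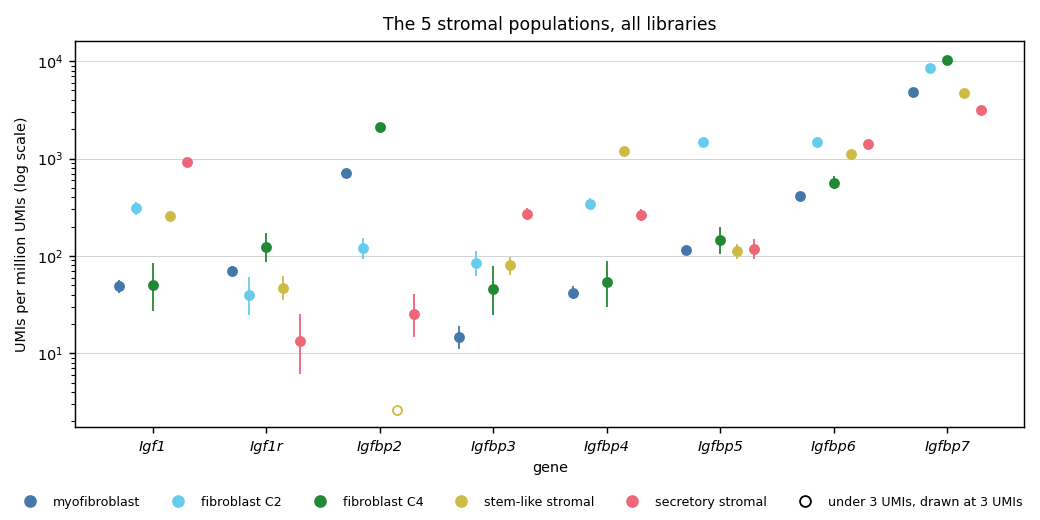
Level of the 8 genes in the 5 stromal populations, all libraries together, in UMIs per 1000000 UMIs on a log axis with 95% counting intervals. An open symbol stands for fewer than 3 UMIs. *Igf1* is highest in secretory cells (925), *Igfbp2* in fibroblast C4 (2099), *Igfbp4* in stem-like cells (1208) and *Igfbp5* in fibroblast C2 (1468).

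*Igf1* was at 925 (854 to 1001) in secretory cells, 308 in fibroblast C2, 259 in stem-like cells and about 49 in fibroblast C4 and myofibroblasts. The secretory cells were 3.01 times (2.53 to 3.58) fibroblast C2. The rank of the stem-like cells depended on the library: in the vas deferens they were at 198, while the 16 stem-like cells of the corpus were at 1643 and the 11 of the cauda at 1483, the latter with 22 of 30 UMIs in 1 cell. Fibroblast C2, the next population over all libraries, was uneven as well. Its 36 corpus cells were at 855 from 85 UMIs, whereas its cauda cells had a level of 153 and the vas deferens library gave 261. Without the cauda library, which held the lowest of these fibroblast C2 levels, *Igf1* no longer reached 2 times the next population.

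The receptor ran the other way among these populations. *Igf1r* was lowest in the secretory cells, at 13.3 (6.09 to 25.3), where *Igf1* was highest, and was 124.5 in fibroblast C4, 70.1 in myofibroblasts, 47.3 in stem-like cells and 39.8 in fibroblast C2. Within the vas deferens library alone the secretory cells had 609 *Igf1* UMIs and 9 *Igf1r* UMIs.

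*Igfbp2* was at 2099 (1933 to 2276) in fibroblast C4 and 711 in myofibroblasts, the populations with smooth muscle actin. It was 119 in fibroblast C2, 25.2 in secretory cells and, with 1 UMI in 549 cells, 0.876 in stem-like cells. *Igfbp4* was nearly the mirror image, at 1208 (1145 to 1273) in stem-like cells, 344 in fibroblast C2 and 265 in secretory cells but 53.4 in fibroblast C4 and 42.0 in myofibroblasts. After thinning, 270 of 404 stem-like cells of the vas deferens (66.8%) had an *Igfbp4* UMI.

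*Igfbp5* in fibroblast C2 was the largest step between populations, at 1468 against 146 in fibroblast C4, a ratio of 10.1 (7.35 to 14.1). The other 4 populations lay between 111 and 146. Within fibroblast C2 the gene was uneven, since 5 cells of 153 held 34.6% of its 811 UMIs. *Igfbp3* was at 269 in secretory cells and 85.1 in fibroblast C2, a ratio of 3.17 (2.29 to 4.46), with 15.4% of the 182 secretory UMIs in 1 cell.

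*Igfbp6* and *Igfbp7* were shared more evenly. *Igfbp6* was at 1489 in fibroblast C2 and 1396 in secretory cells, which did not differ beyond counting error (1.07, 0.97 to 1.17), then 1117 in stem-like cells, 566 in fibroblast C4 and 417 in myofibroblasts. *Igfbp7* ranged from 3182 in secretory cells to 10314 in fibroblast C4.

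Population and library are entangled here. In the vas deferens library alone, which holds all 5 populations, only *Igf1* and *Igfbp4* kept 2 times the next population (ratios 3.55 and 2.21). There *Igfbp5* was 482 in fibroblast C2 and 431 in fibroblast C4 (limits of the ratio 0.63 to 2.12). *Igfbp2* was led there by myofibroblasts at 75.6, under the 86.2 that 3 UMIs would be in the few fibroblast C4 cells, and those UMIs came mostly from 1 cell, described next. Without the vas deferens library, *Igfbp2* and *Igfbp5* were the members past 2 times the next.

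Across regions, 6 of the 8 members had at least a 2-fold range between libraries within stromal cells, against 43.6% of the 8848 genes tested. The median range was 8.99-fold for the members and 1.97-fold for those genes. *Igf1* was at 39.5, 94.5, 166 and 350 in the caput, corpus, cauda and vas deferens. *Igfbp3* was at 8.37, 16.3, 32.4 and 124, and *Igfbp4* at 23.9, 32.0, 114 and 680 in the same order. All 3 were thus lowest in the caput and highest in the vas deferens. *Igfbp2* was at 897, 904 and 691 in the epididymal libraries and 25.1 in the vas deferens, so it went the other way. *Igfbp5* peaked in the cauda (62.2, 143, 568 and 200), and *Igfbp6* was lowest in the caput (470, 660, 607 and 955). *Igf1r* (75.3, 78.7, 46.0 and 46.6) and *Igfbp7* (5128, 5540, 6114 and 4529) stayed within a 2-fold range. Without the vas deferens library, *Igfbp2* and *Igfbp6* came within a 2-fold range as well. Without the caput library, *Igfbp6* did.

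Because the makeup of the stroma differs between libraries, the comparison was repeated in myofibroblasts, the one stromal population with at least 162 cells in every library (184, 420, 162 and 209). With 7 members at 20 UMIs or more in a library, 5 had a 2-fold range, against 42.1% of the 7105 genes tested. *Igfbp2* was at 902, 835 and 754 in the caput, corpus and cauda and at 75.6 in the vas deferens. Of the 46 *Igfbp2* UMIs in vas deferens myofibroblasts, 44 were in a single cell with 5211 UMIs, which shared its barcode with no other library and was not called a doublet. Without that cell the level was 3.32. The ratio to each epididymal library was 0.0838 to 0.100 with the cell, so the vas deferens was the low library in either case.

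**Figure D3:**
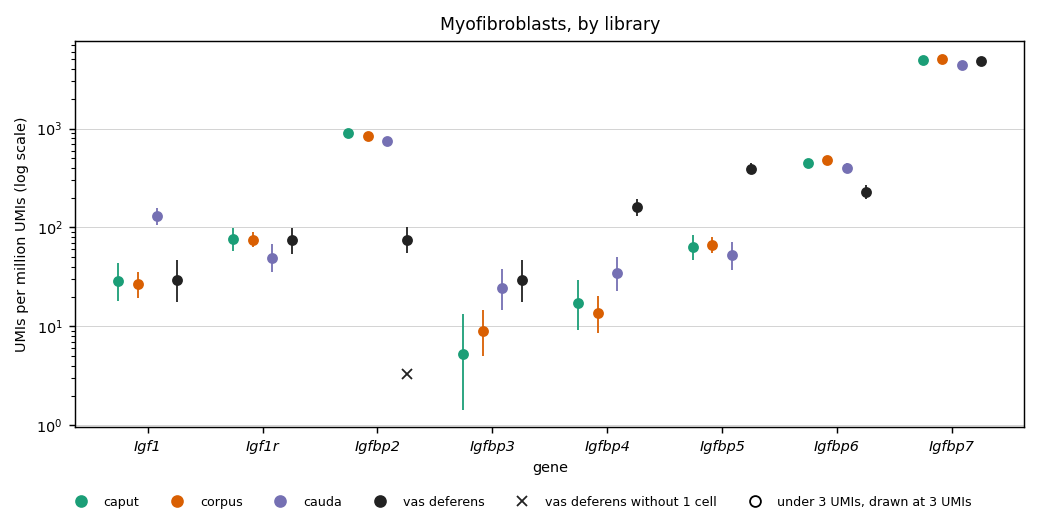
Level of the 8 genes in myofibroblasts of each library, in UMIs per 1000000 UMIs on a log axis with 95% counting intervals. The cross is the vas deferens without the 1 cell that holds 44 of its 46 *Igfbp2* UMIs. *Igfbp2* is at 754 to 902 in the 3 epididymal libraries and 75.6 (3.32 without that cell) in the vas deferens, *Igfbp4* and *Igfbp5* are higher in the vas deferens at 161 and 393, and *Igfbp7* is level.

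The other binding proteins of the myofibroblasts differed too. *Igfbp4* was at 17.1, 13.6 and 34.4 in the epididymal libraries and 161 in the vas deferens, a ratio of vas deferens to epididymis of 8.25 (5.95 to 11.5). *Igfbp5* was at 63.2, 67.1 and 52.2 against 393, a ratio of 6.28 (5.18 to 7.61). *Igfbp6* was at 445, 479 and 401 against 228, a ratio of 0.505 (0.421 to 0.602). *Igfbp7* differed little, at 4974, 5017, 4442 and 4840 with a ratio of 0.994 (0.956 to 1.03). *Igf1* in these cells was highest in the cauda (29.0, 26.7, 130 and 29.6), unlike in all stromal cells together. The *Igfbp3* levels were low, at 5.27, 8.90, 24.2 and 29.6.

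Taken as shares of the UMIs of *Igfbp2* to *Igfbp6*, *Igfbp2* made up 63.0%, 59.5% and 59.6% in the myofibroblasts of the caput, corpus and cauda and 8.52% in those of the vas deferens. *Igfbp5* made up 4.41%, 4.78% and 4.12% against 44.3%. The most abundant of these 5 binding proteins was therefore *Igfbp2* in the 3 epididymal libraries and *Igfbp5* in the vas deferens. The smooth muscle markers summed to 21286, 12760, 23982 and 15904 UPM and the collagen-type stromal markers to 3024, 2631, 4979 and 3882 in the same order, so the vas deferens cells lay within the epididymal range of both lists. The stem-like markers were at 311 in the vas deferens myofibroblasts and at 9.22 to 22.6 in the others. Their part in these results was not tested.

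*Igfbp2* was lower in the vas deferens in every group where the comparison could be made. The ratio of vas deferens to epididymis was 0.0299 (0.0229 to 0.0384) in stromal cells, 0.0909 in myofibroblasts, 0.0854 in endothelial, 0.274 in basal and 0.0549 in principal cells. The endothelial level of the epididymis came from 20 UMIs in 5 caput cells and 29 UMIs in 7 corpus cells. Cauda endothelial cells had 0 UMIs and so were not above the vas deferens. In basal cells the vas deferens was below the caput and the cauda, but its ratio to the corpus had limits of 0.417 to 1.19. In fibroblast C2 the levels were 8.17 and 155, with 37 of the 58 cauda UMIs in 1 cell, and in fibroblast C4 all 590 UMIs came from epididymal libraries and 0 from the 37 vas deferens cells, with an upper limit of 0.0444 for the ratio. In muscle cells the cauda was at 394 and the vas deferens at 11.1, but 99 of the 100 cauda UMIs were in 5 cells of 58. In principal cells the values were 7.78 and 0.427, from 38 and 2 UMIs. How much of the low level in epithelium was ambient RNA left after the authors' correction was not tested. The other members did not move as a block: *Igfbp5* was higher in the vas deferens in myofibroblasts and endothelial cells (6.02, 3.80 to 10.0) but lower in fibroblast C2 (0.269, 0.203 to 0.351). In basal cells its ratio was 0.445 (0.321 to 0.603), which rested on the caput: the log2 ratio was -1.17 with that library and -0.18 without it.

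**Figure D4:**
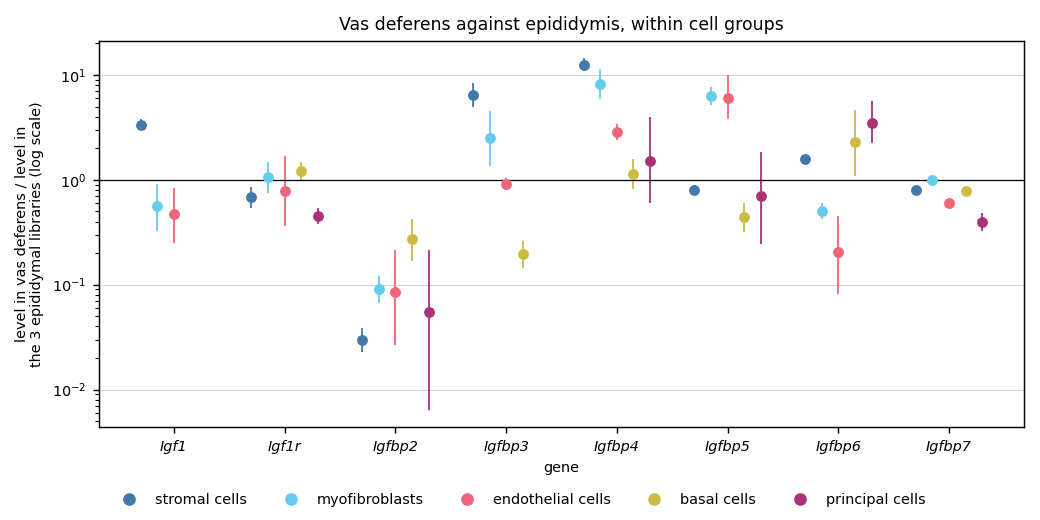
Ratio of the level in the vas deferens library to the level in the 3 epididymal libraries together, on a log axis, for each gene in 5 groups of cells, with 95% counting intervals. *Igfbp2* is below 1 in all 5 groups, from 0.0299 in stromal to 0.274 in basal cells. By contrast, *Igf1*, *Igfbp3*, *Igfbp5* and *Igfbp6* have ratios on both sides of 1 whose limits exclude 1. With 1 library left out, the *Igf1* ratios below 1 and the stromal *Igfbp5* ratio changed sides.

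The promoter of *Igfbp2* is shown with those of *Igfbp4* and *Igfbp5* because these genes separated the vas deferens from the epididymis in myofibroblasts in opposite directions. *Igfbp2* and *Igfbp5* are neighbors on chromosome 1 that are read toward each other, with 5457 bases between their 3′ ends. The 250 bases before a RefSeq start site (GRCm38.p6), for *Igfbp2* the more upstream one, follow in the direction of transcription. Capitals mark TATAAA, the core of a TATA box, or GGGCGG, the core of a GC box, on either strand.
*Igfbp2*, chr1:72824230-72824479 (+ strand): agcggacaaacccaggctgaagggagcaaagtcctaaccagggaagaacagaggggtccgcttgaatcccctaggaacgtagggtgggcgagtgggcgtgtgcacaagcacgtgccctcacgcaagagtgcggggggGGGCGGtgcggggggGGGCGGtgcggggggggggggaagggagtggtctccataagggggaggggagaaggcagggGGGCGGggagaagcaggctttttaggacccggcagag
*Igfbp4*, chr11:99040994-99041243 (+ strand): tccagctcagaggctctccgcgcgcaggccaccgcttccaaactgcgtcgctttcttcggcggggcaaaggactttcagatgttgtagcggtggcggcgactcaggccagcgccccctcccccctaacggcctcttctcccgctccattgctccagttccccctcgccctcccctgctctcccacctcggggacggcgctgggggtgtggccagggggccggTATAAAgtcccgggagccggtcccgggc
*Igfbp5*, chr1:72874866-72875115 (− strand): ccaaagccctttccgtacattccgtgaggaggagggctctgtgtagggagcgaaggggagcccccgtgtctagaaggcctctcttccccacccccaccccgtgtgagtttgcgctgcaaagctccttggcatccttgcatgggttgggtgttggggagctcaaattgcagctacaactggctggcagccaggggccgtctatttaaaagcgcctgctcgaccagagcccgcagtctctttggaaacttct
The *Igfbp2* window held GGGCGG 3 times and no TATAAA, the *Igfbp4* window held TATAAA once and no GGGCGG, and neither was in the *Igfbp5* window. RefSeq lists a second start for *Igfbp2*, whose 250 bases held neither motif. All 8 members had a promoter in the table. Over its 32851 promoters, 12.4% held TATAAA and 32.7% held GGGCGG in the same 250 bases, so these matches are common and are a description of the letters only.

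In basal cells, the flat epithelial cells that sit on the basement membrane, 7 members had at least 20 UMIs in a library, and 5 of these 7 had a 2-fold range with 20 UMIs in the highest library, against 40.6% of the 7800 genes tested. From the caput to the vas deferens, *Igfbp7* was at 4146, 1840, 982 and 1824. *Igfbp5* was at 172, 46.2, 22.0 and 34.8, and *Igfbp4* at 61.7, 23.5, 22.0 and 39.2. These 3 were highest in the caput. *Igfbp3* had another pattern, at 57.4, 241, 222 and 36.3, high in the middle of the tract and low at its ends. *Igfbp2* was at 88.6, 22.7, 111 and 16.3, high in the caput and cauda. *Igf1r* stayed between 58.8 and 101. *Igfbp6* was at 0.709, 8.11, 1.05 and 10.4, and was not counted because its highest library, the vas deferens, had only 14 UMIs. Without the caput library, *Igfbp4* and *Igfbp7* came within a 2-fold range and *Igfbp2*, *Igfbp3* and *Igfbp5* remained outside it.

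**Figure D5:**
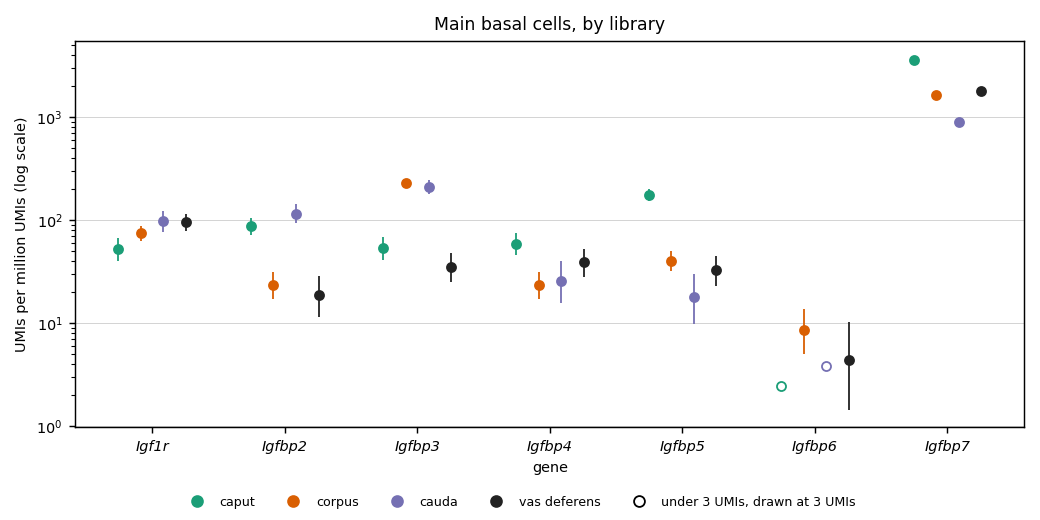
Level of 7 of the genes in the main basal population of each library, in UMIs per 1000000 UMIs on a log axis with 95% counting intervals. Open symbols stand for fewer than 3 UMIs, and *Igf1*, with 0 to 3 UMIs per library in basal cells, is left out. *Igfbp7* is highest in the caput (3643) and lowest in the cauda (900), and *Igfbp3* is highest in the corpus (231) and lowest in the vas deferens (35.4).

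The highest and lowest libraries of *Igfbp7* and *Igfbp3* were the same in the main basal population alone, which has 917 cells: *Igfbp7* was highest in the caput at 3643 and lowest in the cauda at 900, *Igfbp3* highest in the corpus at 231 and lowest in the vas deferens at 35.4, and *Igfbp5* was highest in the caput at 176. The order of the other libraries was not the same for every gene, since *Igfbp4* was lowest in the corpus there. The principal markers in basal cells summed to 2203, 1309, 788 and 1325 UPM, the same order of libraries as *Igfbp7* except that the corpus and vas deferens lay close together in both, and the secretory stromal markers to 1126, 902, 332 and 289. Over all basal cells the secretory stromal markers were mostly *Cxcl1*, at 646, with *Tslp* at 55.8, *Il6* at 28.6 and *Ptx3* at 0.97. *Cxcl1* is not particular to stroma, with 4139 in immune, 3833 in endothelial and 2580 in stromal cells. The stromal markers summed to 58.8, 49.9, 74.2 and 148. The part of these marker lists in the basal values was not tested. *Igf1* was as good as absent from basal cells, with 0 to 3 UMIs in each library.

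In the endothelium all 7 members with 20 UMIs in a library had a 2-fold range, against 36.4% of 3346 genes. These values stand on 50, 39, 12 and 144 cells, and when the cell with the most UMIs of each gene was left out, the count was 3 (*Igfbp4*, *Igfbp5* and *Igfbp7*). *Igfbp4* was at 473, 511 and 361 in the epididymal libraries and 1342 in the vas deferens. *Igfbp5* was at 77.7, 60.8 and, with 0 UMIs in 12 cells, below 40.2 in the cauda, against 332 in the vas deferens, where 5 of 144 cells held 76.8% of it. *Igfbp7* was at 9680, 6857, 6492 and 4733, and the muscle markers in these cells summed to 2154, 974, 161 and 343 UPM, both highest in the caput. *Igf1*, *Igfbp2* and *Igfbp6* were highest in the corpus (189, 176 and 128), and the stromal markers summed to 1825 UPM in the corpus endothelial cells, with all 6 detected, against 93.7 to 410 in the other libraries. The part of these markers in the endothelial values was not tested.

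Endothelial cells with and without *Igfbp3* differed in their vessel markers. The study listed *Igfbp3*, *Sox17* and *Edn1* together as arterial markers of an endothelial cluster of these same cells. It gave *Selp*, *Vwf* and *Vcam1* as venous or larger vessel genes of other clusters. The differences in these genes are therefore not independent of those clusters. Of the 200 thinned endothelial cells, 50 had an *Igfbp3* UMI and 150 did not, with median depths of 2596 and 3213 UMIs. The arterial genes *Sox17*, a transcription factor, and *Edn1*, which encodes endothelin 1, were 5.60 times (3.91 to 8.12) and 6.18 times (3.64 to 10.8) as high in the cells with *Igfbp3*, and *Efnb2*, an arterial ephrin, 3.18 times (2.01 to 5.05). The *Edn1* value came from the epididymal libraries, with 46 and 20 UMIs, whereas the vas deferens cells had 0 and 2. The gap junction gene *Gja4* was at 58.5 and 51.2 in all libraries together, but in opposite directions by library, with 1 and 29 UMIs in the epididymal libraries and 11 and 2 in the vas deferens. The venous genes were on the other side. *Selp*, which encodes P-selectin, was at 263 and 3812, a ratio of 0.0691 (0.0518 to 0.0905), *Vcam1* had a ratio of 0.0932, *Vwf* of 0.0410 and *Ackr1* of 0.0301.

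Some of the binding proteins themselves differed between these cells. *Igfbp4* was at 424 in the cells with *Igfbp3* and 0.372 times (0.295 to 0.466) the level of the cells without, while *Igfbp7* was 2.12 times as high, with 3.83 in the vas deferens and 1.24 in the epididymal libraries. The general endothelial markers were themselves 1.76 times as high in the cells with *Igfbp3*, with 2.08 in the vas deferens and 1.61 in the epididymal libraries. Their part in these ratios was not tested. Per cell, 32.0% of the cells with *Igfbp3* had *Igfbp4*, and 55.3% of those without did. *Igfbp2* had 0 UMIs in the 50 cells with *Igfbp3* and 48 in the others, and *Igfbp6* had 3 and 36. *Igfbp5* did not divide in this way, with a ratio of 0.794 (0.533 to 1.15) over all libraries. Its ratio was 1.56 (1.04 to 2.29) in the vas deferens, but it had 0 and 20 UMIs in the epididymal libraries. The summed arterial list was 7.49 times as high in the vas deferens library alone and 2.38 times in the 3 epididymal libraries. The venous list was 0.106 and 0.0704 times as high, and *Igfbp4* 0.451 and 0.479 times. These 3 had the same direction in both sets of libraries, unlike *Gja4* and *Igfbp5*. These cells were split by a gene of the same counts, and the split is a description.

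Principal and clear cells, the secretory and acidifying cells of the epithelium, held little of the family. In principal cells 3 members had 20 UMIs in a library, and all 3 had a 2-fold range, as did 61.8% of the 9854 genes tested there. *Igf1r* was at 114, 95.2, 55.8 and 39.9 from the caput to the vas deferens, and *Igfbp7* at 116, 66.3, 42.0 and 29.7. Both were lower in each successive region. *Igfbp6* was at 4.06, 12.7, 1.15 and 19.4. Among the 15 principal populations *Igf1r* ranged from 22.9 in principal 9 to 153 in principal 6. *Igfbp7* in clear cells was at 252, 283 and 421 in the caput, corpus and vas deferens, while the 105 clear cells of the cauda had 1 UMI of it. The vas deferens value comes from 38 clear cells, in which the principal markers summed to 9846 UPM, against 831 to 1681 in the clear cells of the other libraries. The basal markers summed to 474 there, against 60.2, 70.7 and 159 in the caput, corpus and cauda. The stromal markers summed to 207, against 793, 304 and 79.4. The part of these marker lists in that value was not tested.

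The other genes of the pathway were taken from a list of 32, of which 27 had at least 100 UMIs. Their highest type was stromal for 8, muscle for 6, endothelial for 5, principal for 3, clear for 2, immune for 2 and basal for 1. Of the 28 with 20 UMIs in a type, 4 were at least 4 times the next type, against 10.4% of all genes tested. These were *Stc1*, *Htra3*, *Irs1* and *Insrr*. The last is below 100 UMIs and is named after its values were seen. The serum partners and remaining binding proteins were all but missing, with 1 UMI of *Igfbp1*, 1 of *Igfbpl1* and 7 of *Igfals*, the acid-labile subunit.

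Of the other ligand and receptors, *Igf2* was stromal like *Igf1*, at 79.7 against 21.5 in endothelial cells, but within the stroma it was highest in myofibroblasts at 113 and lowest in secretory cells at 11.8, opposite to *Igf1*. The scavenger receptor *Igf2r* was highest in muscle at 95.7. The insulin receptor gene *Insr* was at 273 in endothelial and 73.2 in clear cells, whereas *Igf1r* was at 37.1 and 64.3 in these types. *Insrr*, the insulin receptor-related gene whose product responds to alkaline pH, was at 47.2 in clear cells, with 69 of its 82 UMIs there, against 1.54 in stromal cells.

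The genes that act on binding proteins were mostly stromal. *Htra1* and *Htra3*, secreted serine proteases, were at 144 and 51.9 in stromal cells. *Pappa* and *Pappa2*, metalloproteases that cut IGF binding proteins, were at 19.0 and 29.9 in stromal cells. Within the stroma both were highest in the secretory population, at 75.5 and 111. Their inhibitors, the stanniocalcins, were divided: *Stc1* was at 429 in endothelial cells and 38.5 in the next type, while *Stc2* was at 20.2 in stromal cells.

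Inside cells, the adaptors of the receptors had different leading types. *Irs1* was at 34.1 in muscle, *Irs4* at 17.9 in stromal cells and *Irs2* at 110 in stromal and 106 in clear cells. *Grb10*, an inhibitory adaptor, was at 110 in endothelial and 105 in basal cells. *Shc1* (63.6), *Grb14* (23.0), *Pik3ca* (64.3) and *Pik3r1* (224) were highest in muscle, *Gab1* in basal cells (26.7), *Akt1* (107) and *Akt2* (36.9) in clear cells. *Foxo1*, a transcription factor restrained by AKT, was at 224 in endothelial cells, and *Foxo3* (25.1) and the insulin-degrading enzyme gene *Ide* (26.6) were highest in principal cells. Of the growth hormone axis, *Ghr* was at 32.4 in principal and 29.4 in stromal cells, *Socs2* at 140 in endothelial cells, and *Stat5a* (43.0) and *Stat5b* (18.9) were highest in immune cells. Within the stroma 4 of the 27 pathway genes with 20 UMIs in a population had a highest population at least 2 times the next (*Igf2r*, *Pappa*, *Stc1* and *Grb10*). Of all genes tested there, 6.40% did. Between libraries, a 2-fold range was present in 13 of 26 pathway genes in stromal cells, 11 of 22 in myofibroblasts, 10 of 16 in basal, 4 of 8 in endothelial and 18 of 21 in principal cells, to be read beside the shares of all genes given above.

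For each member, the genes with the most similar pattern were found by Pearson's r of log2(UPM + 10) over the 34 populations, among 9280 genes with at least 200 UMIs. The populations share 4 libraries and were defined from these counts, so the coefficients are descriptions. *Igf1* was most like *Medag*, *Aspn* and *Ecm2* (r of 0.94, 0.92 and 0.91), and *Igfbp6* most like the collagen genes *Col1a1* and *Col1a2* and the hyaluronan synthase gene *Has1* (0.97, 0.96 and 0.96). *Igfbp2* went with *Col12a1*, *Col4a4* and *Aard* (0.90, 0.89 and 0.89), and *Igfbp5* with *Ppic*, *Bmp1* and *Plod2* (0.95, 0.91 and 0.90). The members highest in endothelial cells had other neighbors. *Igfbp3* was most like *Tm4sf1*, *Gprc5b* and *Cxcl12* (0.89, 0.87 and 0.86), *Igfbp4* most like *Ifit3*, *Vcam1* and *Ifi203* (0.90, 0.88 and 0.85), and *Igfbp7* most like *Timp3*, *Sparc* and *Fermt2* (0.95, 0.93 and 0.92). Of these neighbors, *Gprc5b* was highest in basal cells and *Cxcl12*, *Sparc* and *Fermt2* in stromal cells, with the rest highest in endothelial cells. *Igf1r* had the weakest neighbors, *Huwe1*, *Dync1h1* and *Cldn12*, at 0.83 each. Between members, the largest coefficient was that of *Igf1* and *Igfbp6* (0.85), and *Igf1* and *Igf1r* had -0.19.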

How the data were processed

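The authors aligned the reads to mm10 with HISAT2 2.0.4 and counted UMIs per RefSeq gene with ESAT, merging single UMIs that differed by 1 base. They kept barcodes between set UMI limits (350 to 14999 in the table of cells), subtracted estimated ambient RNA with a modified SoupX and deposited whole UMI counts for 16892 genes and 8880 cells. The deposited size factors of the authors, from scran, are a score per cell and were not used. Cell types and populations are those in the authors' table, from density-peak clustering, and were matched to the study's population names by label and cell number. No doublet step was found in the sources used here. A doublet score against simulated doublets called 178 cells (2.00%), which were kept and left out only in an alternative.

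Levels are summed UMIs per 1000000 UMIs, over depths of 4408989 to 10744928 UMIs per library. The 95% intervals cover counting error only: Poisson limits were used for a level, Clopper-Pearson limits for a share and, for a ratio, binomial limits given the summed UMIs, all of them exact. Levels under 3 UMIs were set to 3 UMIs in ratios. Shares of cells were taken after drawing 1000 UMIs per cell, which left 5703 cells and dropped the shallower ones. With 1 library per region no test was made. A gene was compared between cell types when it had at least 20 UMIs in a type and was counted when the highest type was at least 4 times the next. Between libraries (highest against lowest, at least 10 cells) and stromal populations (highest against next) the limit was 2 times, also with 20 UMIs in the highest library or population. Library totals stand for regions as 1 replicate each. The 8 genes, the marker and pathway lists and the rules were chosen with earlier results of these data known. All 8 members are named, pathway genes with at least 100 UMIs are named by their highest type, and the 3 genes with the highest r are named for each member. The steps were tested on simulated data with known folds. Tables were handled in Python 3.11.15 with pandas 2.3.3 and numpy 2.4.6, intervals were from scipy 1.17.1, nearest neighbors for doublets from scikit-learn 1.9.0 and plots from matplotlib 3.10.9. Coordinates are GRCm38, the assembly of mm10.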

Additional observations from a re-analysis of the deposited data

Results flagged for a closer look

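For 3 genes the ratio of the vas deferens to the 3 epididymal libraries lay on opposite sides of 1 in different groups of cells, with every epididymal library on the same side within each group. With 1 library per region these differences were not tested. The ratio of *Igfbp3* was 6.42 in stromal cells and 0.197 in basal cells. The ratio of *Igfbp6* was 1.58 in all stromal cells and 0.505 in myofibroblasts, which are part of those stromal cells. The ratio of *Igfbp7* was 2.76 in clear cells, against 0.806 in stromal, 0.604 in endothelial and 0.395 in principal cells. In the 38 clear cells of the vas deferens, the principal markers summed to 9846 UPM and the macrophage markers to 93.5. In the clear cells of the other libraries the principal markers summed to at most 1681 and the macrophage markers to 0. The basal markers summed to 474 in the vas deferens clear cells and to 60.2, 70.7 and 159 in those of the caput, corpus and cauda. The part of these marker lists in the *Igfbp7* value was not tested.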

How the results depend on the processing

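No paired analysis was possible because each region is 1 pooled library and no value comes from a test. The number of members past the cell type limit was 3. It was 5 at 0.5 of the fold and 1 at 2 times the fold, and 3 to 4 with each library left out in turn. The stromal count between libraries was 6 and ran from 4 to 6 with a library left out. The basal count was 5 and ran from 3 (without the caput) to 6 (without the vas deferens). The endothelial count was 7. It was 4 with a minimum of 50 UMIs, 4 at 2 times the fold, 3 with the cell richest in each gene left out (chosen after seeing the data) and 4 to 6 with a library left out, lowest without the vas deferens. The principal count was 3, was 1 at 2 times the fold and ran from 2 to 3. The stromal population count was 5, was 1 at 2 times the fold and 2 in the vas deferens library alone, and ran from 2 (without the vas deferens) to 5. The other count settings left these within 1.5 times.

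The log2 ratio of the vas deferens to the epididymis changed sign in 5 values. *Igfbp5* in stromal cells was -0.33, and -0.84 to 0.75 with a library left out, highest without the cauda. *Igfbp7* in basal cells was -0.36, and -0.65 to 0.19, highest without the caput. *Igf1* in endothelial cells was -1.10, and -1.68 to 1.59, highest without the corpus. *Igf1* in myofibroblasts was -0.82, and -1.44 to 0.11, highest without the cauda, and 0.18 as the mean over cells. The cause was not tested. Of the other ratios 205 moved by less than counting error and 49 by more. For the ratio of the highest to the next type these numbers were 41 and 31. Shares of cells followed the depth they were thinned to, with 13 outside the counting limits at another depth and 3 inside. The endothelial values of the cauda, from 12 cells, are the least precise.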

Other observations

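Some populations outside the comparisons above carried members of the family at levels not yet given. Among immune cells, *Igf1* and *Igfbp4* were in macrophages, with 37 of the 57 immune *Igfbp4* UMIs in the macrophage population at 121 UPM and 16 in the 26 Trem2 macrophages at 204. *Igf1* was at 26.1 (8 UMIs) and 76.4 (6 UMIs) in these populations. No immune cell had an *Igfbp2* or *Igfbp3* UMI. In the muscle populations, *Igf1r* was at 221 in muscle C1 and 76.9 in muscle C2, and *Igfbp7* at 3541 and 1560. Muscle C1 is the shallower of the pair, with a median of 1080.5 UMIs per cell against 5423.5. In basal cells, the low-UMI population had *Igfbp7* at 6087 and *Igf1r* at 186, against 2055 and 77.7 in the main population, at medians of 900 and 5654 UMIs. The part of depth in these levels was not tested.

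Within single populations, members were not always found in the same cells. In the secretory cells of the vas deferens, 94 of 181 thinned cells had *Igf1*. Of these 20.2% also had *Igfbp3*, against 6.90% of the cells without *Igf1*. For *Igfbp6* the shares went the other way, at 44.7% and 65.5%, and for *Igfbp4* they were 11.7% and 21.8%. In the myofibroblasts of the epididymal libraries, 43.0% of cells with *Igfbp2* had *Igfbp6*, against 32.7% of the cells without it. These shares come from cells of the same libraries and are given without a test.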
